A study of Homo sapiens with 6 samples.

Results

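This report describes 10 keratin genes in SW780 human bladder cancer cells with and without exposure to RC48: KRT7, KRT8, KRT18, KRT19 and KRT20, called simple and luminal keratins here, and KRT5, KRT6A, KRT13, KRT15 and KRT17, called basal and stratified keratins. They were taken by symbol from the gene count tables, where all 10 were found among 16390 genes, and each has 1 row. SW780 is a purchased human bladder cancer line, taken in the study as one of the luminal kind. RC48 (disitamab vedotin) joins an antibody against the receptor ERBB2 to MMAE, a drug that blocks tubulin assembly. Total RNA was read from 3 Control libraries and 3 RC48 libraries, the latter from stable SW780 given RC48 at 25 µg/ml, and both groups share the same cell line and no other treatment is named. The labels enter Control and RC48 as the genotype. Neither the exposure time of these libraries nor what the Control cells received is given in the sources used here. The labels do not say that replicates came from separate cultures, so p-values measure the spread between these libraries, which may be technical.

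Keratins are the intermediate filament proteins of epithelial cells, and every keratin filament is built from a type I (acidic) chain paired with a type II (basic) chain. In the urothelium, KRT7, KRT8, KRT18 and KRT19 are found through most layers, KRT20 marks the superficial umbrella cells, KRT13 the intermediate layers, and KRT5, KRT15 and KRT17 the basal side. KRT6A and KRT17 are also known as keratins that are switched on in injured or activated epithelium.

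Of the 10 genes, 4 are type II (KRT5, KRT6A, KRT7 and KRT8) and lie on chromosome 12, and 6 are type I, of which KRT18 lies on chromosome 12 beside KRT8 and the other 5 on chromosome 17 (GRCh38, GENCODE release 29). The members resemble each other in sequence, among other places at the start of the coiled-coil rod, the stretch in which chains pair. The 39 coding bases of that stretch are shown for 3 of the type I keratins on which the results turn, because a short read from it must be told apart from its neighbours. All 3 lie in exon 1 on the minus strand, KRT17 at chr17:41624201-41624239, KRT15 at chr17:41518456-41518494 and KRT20 at chr17:40884919-40884957. Capitals mark bases that differ from KRT17.
KRT17: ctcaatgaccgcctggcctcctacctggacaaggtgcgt
KRT15: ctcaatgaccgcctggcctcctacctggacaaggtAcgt
KRT20: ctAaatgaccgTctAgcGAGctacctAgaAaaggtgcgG
KRT15 differed from KRT17 at 1 of these bases and KRT20 at 9. KRT13, not shown, differed from KRT17 at 4.

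Over whole transcripts, the share of 50-base windows that also occur in another gene gives a rough measure of how far reads could be shared. How the windows compare with the reads and the counting reference was not checked. The share was 0% in KRT20, 0.328% in KRT15, 0.997% in KRT7, 1.03% in KRT13, 1.79% in KRT19 and 3.99% in KRT5. It was 17.4% in KRT17, mostly shared with the pseudogenes KRT17P1 and KRT17P2, while only 1.77% of its windows occur in another gene of the count tables, chiefly KRT16 and KRT14. It reached 31.8% in KRT18 and 37.1% in KRT8, which have many pseudogenes, and 39.1% in KRT6A, which shares them with KRT6C and KRT6B. KRT6B, KRT6C and these pseudogenes were not analysed here. The values of KRT6A, KRT8, KRT18 and, less so, KRT17 are therefore uncertain to the extent that the counting split reads among such copies. The share of KRT15 rests on a transcript of 5237 bases, its longest with a RefSeq mRNA. That transcript holds 17 shared windows, as does KRT13's in 1699 bases, so KRT15's lower share reflects the longer transcript. The annotated spans of KRT8 (chr12:52897187-52949954, minus strand) and KRT18 (chr12:52948871-52952901, plus strand) also overlap, and whether counting used strand is not given in the sources used here.

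Estimated counts summed to between 16453233 and 17988030 per library. The spread among RC48 libraries was wider than among Control libraries: a chi-square statistic divided by its degrees of freedom, near 1 for sampling noise alone, was 1.47 to 11.02 between Control libraries and 20.8 to 125.8 between RC48 libraries. Gene levels also followed the GC content of the transcript. The Spearman correlation, across 13000 genes, of GC content with a library's log2 difference from the Control mean was 0.754 in RC48 replicate 1, 0.587 in RC48 replicate 3, -0.0197 in RC48 replicate 2 and between -0.243 and 0.228 in Control libraries. Of the 10 keratins, 9 have a GC content above the median of 48.8% over the genes tested, from 55.8% in KRT6A to 62.9% in KRT7, and KRT20 has 45.7%. The trend fitted to RC48 replicate 1 stood between +0.48 and +0.68 on the log2 scale at those 9 genes, so the test of each keratin is given with and without a correction that subtracts each library's trend.

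Epithelial transcripts were abundant in every library. Leaving out KRT8 and KRT18, 6 epithelial markers summed to 2146 to 2236 TPM in Control and 2437 to 2768 TPM in RC48. Of them EPCAM, an epithelial adhesion molecule, was lower in every RC48 library, with a mean of 211 TPM in Control and 142 TPM in RC48 (log2 fold change -0.49, adjusted p 0.199 in edgeR). The 10 keratins together made up 1.87%, 1.91% and 1.80% of all TPM (a level scaled by gene length and library size) in Control replicates 1 to 3, and 2.32%, 2.004% and 2.17% in RC48 replicates 1 to 3. KRT7 alone ranked between 2 and 8 among all genes by TPM. KRT5, the keratin by which basal tumours are usually recognised, was at 5.07 to 8.95 TPM. KRT20, the umbrella cell keratin, was lower still, at 0.490 to 2.44 TPM. Of the other luminal markers that the study uses, GATA3, FOXA1 and ERBB2 had mean levels of 149, 80.8 and 83.0 TPM in Control. PTPRC, the pan-leukocyte antigen, had 0 counts in every Control library and 0 or 1 in RC48 libraries, and VIM, the mesenchymal filament protein, had 2 to 9 counts per library. Summed over 11 leukocyte markers, TPM was 43.2 to 44.1 in Control and 51.2 to 65.9 in RC48, over 8 fibroblast markers it was 215.7 to 245.1 and 163.6 to 246.1, and over 5 endothelial markers 7.06 to 8.15 and 5.04 to 6.12. Of 6 leukocyte markers tested, edgeR called 0, with 4 at an unadjusted p under 0.05, beside 19.1% of all genes tested. In CPM all RC48 libraries lay above Control in 4 and below in 0, beside 17.4% and 14.1% of all genes. Under the GC correction edgeR called 2 of these markers higher, CD3E and SRGN, beside 4.86% of all genes. Of 4 fibroblast markers tested, FAP was called higher, beside 1.98%, and with the correction LUM was also called lower, beside 2.8%. All 4 had an unadjusted p under 0.05 in edgeR, and in CPM RC48 lay above Control in 3 and below in 1. Of 3 endothelial markers edgeR called 0, with 1 at an unadjusted p under 0.05, and with the correction PECAM1 and VWF were called lower. SRGN, LUM, PECAM1, VWF and EPCAM were named after their values were seen. Their part in the keratin values was not tested.

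**Figure D1:**
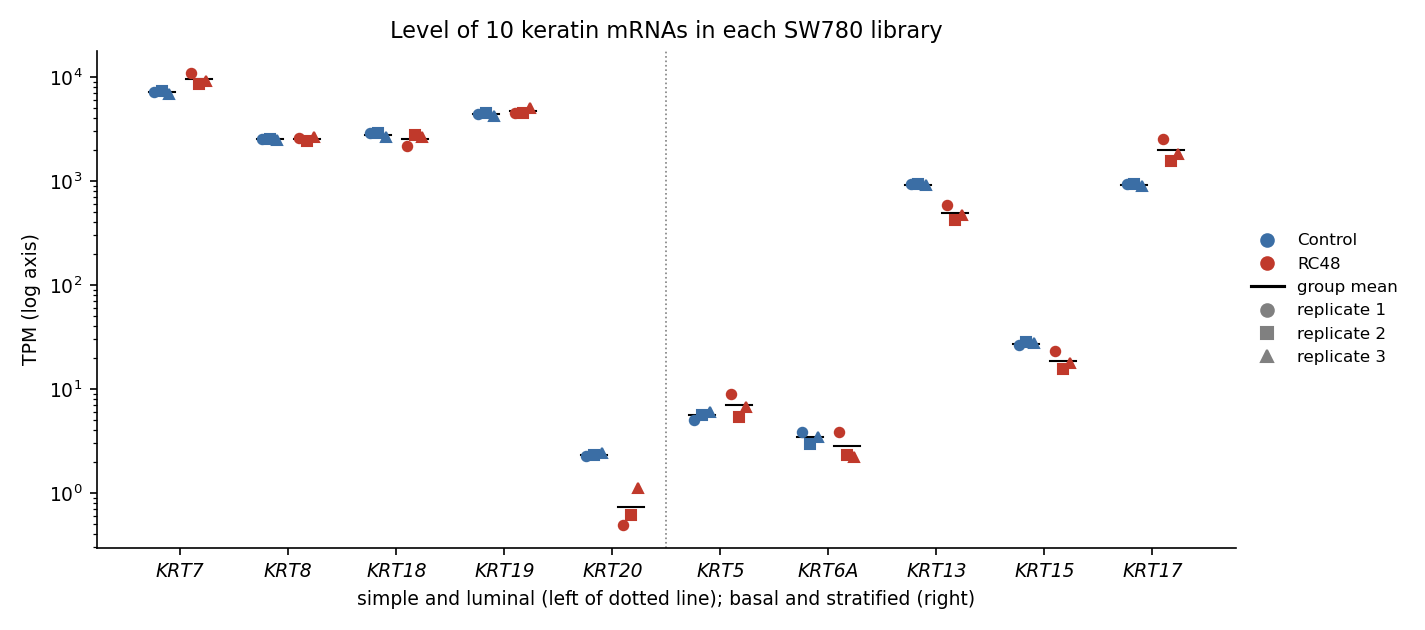
Level of each of the 10 keratins in each of the 6 libraries, in TPM on a log axis, with Control in blue, RC48 in red, a bar at the group mean and 1 symbol per replicate. KRT7 sits highest, between 6859 and 10790 TPM, KRT17 and KRT13 coincide in Control and separate in RC48, and KRT20 sits lowest in RC48.

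By mean TPM in Control the order was KRT7 (7090 ± 238, SD, n = 3), KRT19 (4354 ± 126), KRT18 (2783 ± 138), KRT8 (2501 ± 26.1), KRT13 (919 ± 14.9), KRT17 (915 ± 25.6), KRT15 (27.3 ± 1.11), KRT5 (5.56 ± 0.447), KRT6A (3.43 ± 0.447) and KRT20 (2.33 ± 0.0971). KRT13 and KRT17 did not differ beyond their spread, and the other neighbours in the order did not overlap. In RC48 the order was KRT7 (9416 ± 1222), KRT19 (4678 ± 327), KRT8 (2529 ± 113), KRT18 (2512 ± 313), KRT17 (1964 ± 513), KRT13 (492 ± 87.0), KRT15 (18.7 ± 3.85), KRT5 (7.05 ± 1.78), KRT6A (2.81 ± 0.915) and KRT20 (0.738 ± 0.328). There KRT8 and KRT18 overlapped, and so did KRT18 and KRT17, since KRT17 reached 2534 TPM in RC48 replicate 1. The TPM of RC48 replicate 2 was computed from its counts.

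The comparison asked how the keratin make-up of a luminal line differs after RC48. KRT17 rose 2.35-fold and KRT20 fell to 0.337 of its Control level, while KRT7, KRT8, KRT18, KRT19, KRT5, KRT6A, KRT13 and KRT15 did not pass the test. Thus 2 of 10 keratins were called by edgeR's quasi-likelihood test at an adjusted p under 0.05, beside 2.21% of all 13055 genes tested (1.98% higher and 0.23% lower). The median log2 fold change of the 10 was 0.04, beside 0.02 over all genes. With the GC correction 4 of 10 were called, KRT17 as higher and KRT13, KRT15 and KRT20 as lower, beside 7.66% of all genes (4.86% higher and 2.8% lower), and the median of the 10 was -0.24 beside -0.01. For the other counts given below, 19.1% of all genes had an unadjusted p under 0.05 in edgeR (25.3% with the GC correction). At an adjusted p under 0.05, DESeq2 called 5.7%, limma 22.2% over 5 libraries and 1.69% over 6, and voom with sample weights 61.4%. Fewer cells of a type and less RNA per cell cannot be told apart in bulk RNA.

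**Figure D2:**
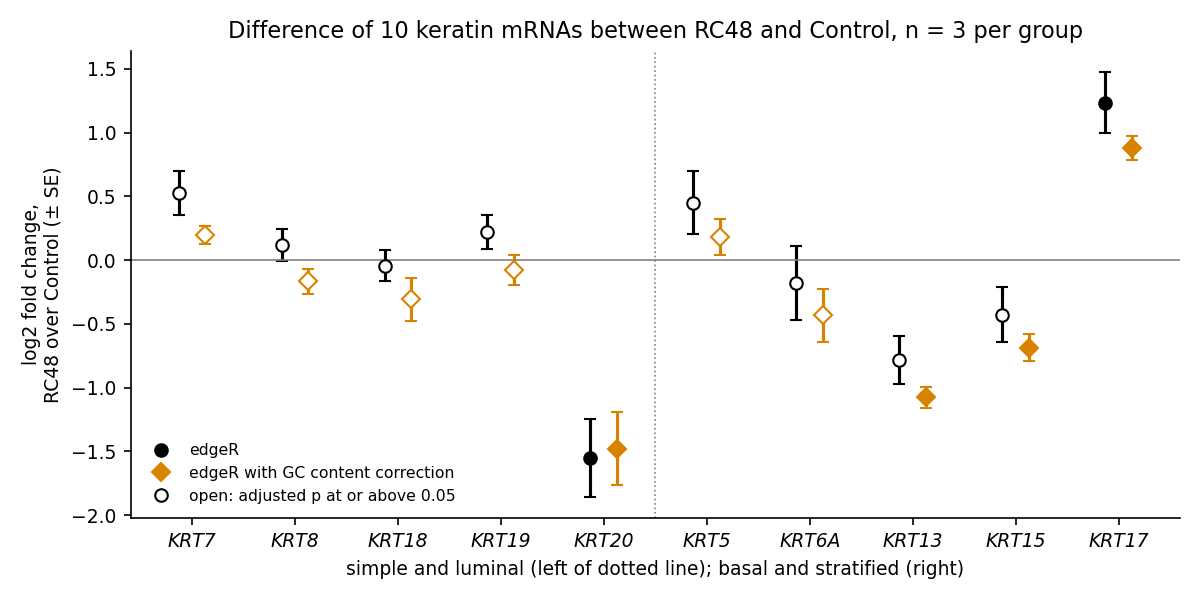
Log2 fold change of each keratin, RC48 over Control, with its standard error from edgeR (black circles) and from edgeR with the GC content correction (orange diamonds), 3 libraries per group. Filled symbols have an adjusted p under 0.05: KRT17 and KRT20 in both, and KRT13 and KRT15 with the correction alone.

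KRT17 (NCBI gene 3872), a type I keratin of basal and activated epithelium, had 650.4, 662 and 569 CPM (counts relative to the TMM-normalised library, without regard to gene length) in Control replicates 1 to 3. In RC48 replicates 1 to 3 it had 2060.1, 1042 and 1329 CPM. All RC48 libraries lay above all Control libraries, with replicate 1 highest. The means were 627 ± 50.5 and 1477 ± 525 CPM (SD, n = 3), a log2 fold change of 1.24 ± 0.24 (SE) with an adjusted p of 0.0460 in edgeR. With the GC correction the levels were 642, 646 and 591 CPM against 1288, 1047 and 1119 CPM, and the log2 fold change was 0.88 ± 0.10 with an adjusted p of 0.00126 in edgeR. Of 25 alternatives, 6 were added after the data were seen, each leaving out a library under the GC correction. The call held in 21 of the 25 (edgeR, limma and DESeq2, adjusted p 4.7e-09 to 0.282, log2 fold change 0.79 to 1.43). It was lost in edgeR without Control replicate 1, 2 or 3 (adjusted p 0.202, 0.200 and 0.282) and without RC48 replicate 3 (0.143), at log2 fold changes of 1.17 to 1.28. KRT16 and KRT14, the listed genes that share most windows with it, had mean levels of 6.65 and 4.26 TPM in Control and 8.71 and 6.30 TPM in RC48, small beside KRT17's. The pseudogenes KRT17P1 and KRT17P2, which share more of its windows, were not analysed.

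KRT13 (NCBI gene 3860), the type I keratin of the intermediate layers and of non-cornified stratified epithelium, had 764, 760.2 and 675 CPM in Control. In RC48 it had 550.0, 329 and 398 CPM. The groups did not overlap, and RC48 replicate 1, the library with the strongest GC trend, lay nearest to Control. The log2 fold change was -0.78 ± 0.19 (SE) and did not pass the test (adjusted p 0.0990 in edgeR). With the GC correction the RC48 libraries drew together at 368, 330.4 and 344 CPM against 758, 749 and 692 CPM in Control, and KRT13 was called lower, with a log2 fold change of -1.08 ± 0.08 and an adjusted p of 1.7e-04 in edgeR. It was called in 18 of 25 alternatives (adjusted p 5.2e-09 to 0.377), among them the 6 added after the data were seen. Without RC48 replicate 1 its log2 fold change was -1.02 with an adjusted p of 6.9e-05 in edgeR, and without RC48 replicate 2 it was -0.63 with 0.0307. It did not pass in edgeR without Control replicate 1, 2 or 3 (adjusted p 0.377, 0.376 and 0.304) or without RC48 replicate 3 (0.335).

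The pair KRT17 and KRT13, chosen for comparison after their values were seen, stood level in Control and apart in RC48. The ratio of KRT17 to KRT13 TPM within a library was 0.991, 1.01 and 0.982 in Control and 4.31, 3.68 and 3.87 in RC48. A ratio within a library does not depend on its scaling, and the GC trends fitted at the genes were close to each other: 0.68 and 0.58 in RC48 replicate 1, -0.01 and -0.00396 in replicate 2, and 0.25 and 0.21 in replicate 3 (log2). The ratio shows unequal change of the genes and not which of them changed.

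**Figure D3:**
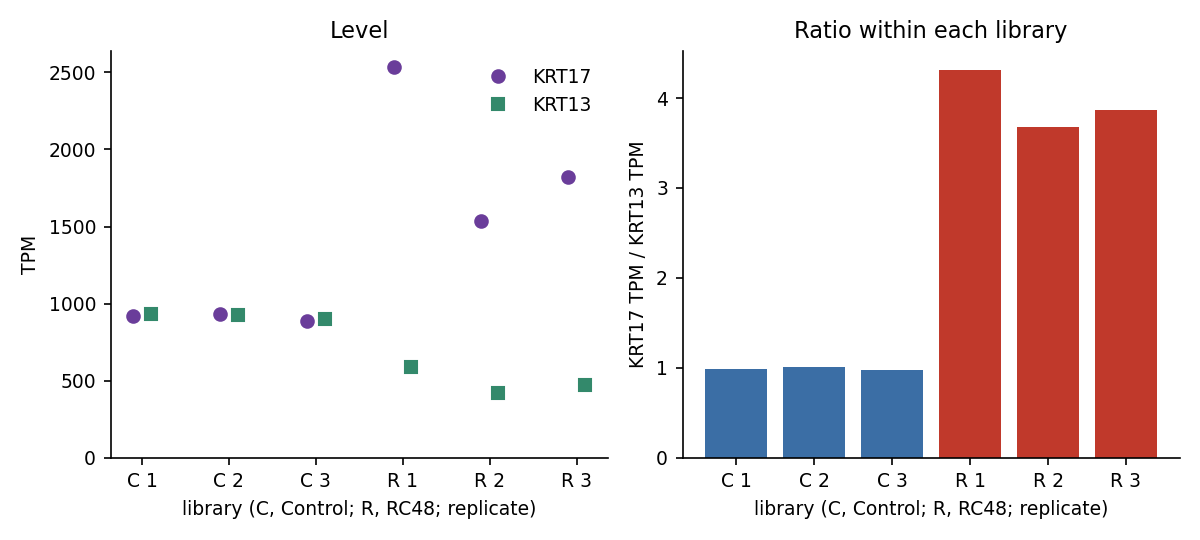
TPM of KRT17 and KRT13 in each library on the left, and their ratio within each library on the right, Control in blue and RC48 in red, both axes starting at 0. The ratio is 0.982 to 1.01 in the Control libraries and 3.68 to 4.31 in the RC48 libraries.

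KRT15 (NCBI gene 3866), a type I keratin of resting basal cells, had 21.5, 23.3 and 20.5 CPM in Control. It had 21.4, 12.2 and 14.97 CPM in RC48, where replicate 1 overlapped with Control. Its log2 fold change of -0.43 ± 0.21 did not pass the test (adjusted p 0.291 in edgeR). With the GC correction the levels were 21.3, 23.1 and 20.8 CPM in Control and 15.1, 12.2 and 13.1 CPM in RC48, which no longer overlapped. KRT15 was then called lower, at -0.69 ± 0.11 with an adjusted p of 0.00719 in edgeR. The correction used the GC content of the 5237-base transcript, and a shorter transcript was not tried. The call was made in 10 of 25 alternatives (adjusted p 1.6e-05 to 0.527). Among them were all 6 that leave out a library under the GC correction (at most 0.0499), which were added after the data were seen. Another was edgeR without RC48 replicate 1 and with no correction (0.00779). KRT15 stood at 0.0284 to 0.0309 of KRT17's TPM in Control and at 0.00905 to 0.0100 in RC48.

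KRT5 (NCBI gene 3852), the type II partner of KRT15 and KRT14 in basal cells and a basal marker of the study, had 99, 111 and 104 counts in Control and 186, 103 and 141 in RC48. These were 5.72, 6.43 and 6.12 CPM against 11.3, 5.88 and 7.85 CPM. The groups overlapped, since RC48 replicate 2 lay within the Control range. edgeR gave a log2 fold change of 0.45 ± 0.24 (adjusted p 0.307), and 0.18 ± 0.14 with the GC correction (0.446). Without RC48 replicate 2, KRT5 passed at 0.65 with an adjusted p of 0.0451 in edgeR, and over all alternatives the adjusted p ran from 0.00311 to 0.810. KRT6A (NCBI gene 3853), a type II keratin of wounded and hyperproliferative epithelium, had 4.51, 3.48 and 3.71 CPM in Control and 5.04, 2.63 and 2.67 CPM in RC48. Its groups overlapped, with a log2 fold change of -0.18 ± 0.29 (adjusted p 0.688 in edgeR), and of -0.43 ± 0.20 with the GC correction (0.225). In edgeR the type II keratins of the basal and stratified class gave 0 calls, and 0 at an unadjusted p under 0.05. DESeq2 and limma called 0 as well, and voom with sample weights 2. Of the type I keratins of this class KRT17 was called higher, and KRT13 and KRT15 lower with the GC correction. KRT5 and KRT6A had 46 to 186 counts per library, KRT15 213 to 403, and KRT13 and KRT17 5769 to 33916. At such unequal depth, the missing calls do not show a difference between filament types.

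KRT20 (NCBI gene 54474) was the keratin of lowest level, and its values rest on few reads. It had 34, 35 and 33 counts in Control and 8, 9 and 18 in RC48. This gave 1.97, 2.03 and 1.94 CPM against 0.486, 0.514 and 1.00 CPM. All RC48 libraries lay below all Control libraries. The means were 1.98 ± 0.0439 and 0.667 ± 0.290 CPM (SD, n = 3), a log2 fold change of -1.55 ± 0.31 with an adjusted p of 0.0489 in edgeR, and of -1.48 ± 0.29 with 0.0190 under the GC correction. The call held in 17 of 24 alternatives (adjusted p 6.7e-05 to 0.232). In edgeR it was lost without Control replicate 1, 2 or 3 (adjusted p 0.215, 0.232 and 0.231) and with library sizes alone (0.0513), and under the GC correction without Control replicate 1, 2 or 3 (0.0819, 0.0840 and 0.0721). The log2 fold change was between -1.99 and -0.91 in all 24 of these alternatives.

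KRT7 (NCBI gene 3855), the most abundant keratin and a type II chain of simple and transitional epithelium, had 5440, 5658 and 4807 CPM in Control. It had 9499, 6235 and 7168 CPM in RC48, all above Control, with replicate 1 highest. The log2 fold change was 0.53 ± 0.17 and did not pass the test (adjusted p 0.188 in edgeR). With the GC correction it was 0.20 ± 0.07 (0.138), and the levels were 5361, 5510 and 5008 CPM against 5913, 6275 and 6021 CPM, which did not overlap either. It passed in 3 of 25 alternatives (adjusted p 2.2e-05 to 0.501), 1 of them without RC48 replicate 2 (log2 fold change 0.65, adjusted p 0.0258 in edgeR). In CPM, the groups of 4 keratins did not overlap, beside 31.5% of all genes: RC48 lay above in 2 (KRT7 and KRT17), beside 17.4%, and below in 2 (KRT13 and KRT20), beside 14.1%. With the GC correction the groups of 6 did not overlap, beside 33.5%, with 2 above (KRT7 and KRT17) beside 16.5% and 4 below (KRT8, KRT13, KRT15 and KRT20) beside 16.9%.

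KRT8 (NCBI gene 3856) and KRT18 (NCBI gene 3875), the partners that form the filaments of simple epithelium, did not pass the test in any of 25 alternatives. KRT8 had 2156, 2187 and 1947 CPM in Control and 2507, 1990 and 2335 CPM in RC48. Its log2 fold change was 0.12 ± 0.13 (0.547 after adjustment in edgeR), and its sign turned with the GC correction (-0.17 ± 0.10, adjusted p 0.313). KRT18 had 1843, 1850.5 and 1540 CPM in Control and 1612, 1692 and 1772 CPM in RC48, with a log2 fold change of -0.04 ± 0.12 (adjusted p 0.818 in edgeR) and of -0.31 ± 0.17 with the GC correction (0.285). KRT19 (NCBI gene 3880), a short type I keratin of simple epithelium, had 2737, 2840.1 and 2432 CPM in Control and 3309, 2708 and 3312 CPM in RC48. Its log2 fold change was 0.22 ± 0.13 (0.330 after adjustment in edgeR), and its sign also turned with the GC correction (-0.08 ± 0.12, adjusted p 0.704). A p that misses the threshold does not show that these levels were equal.

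**Figure D4:**
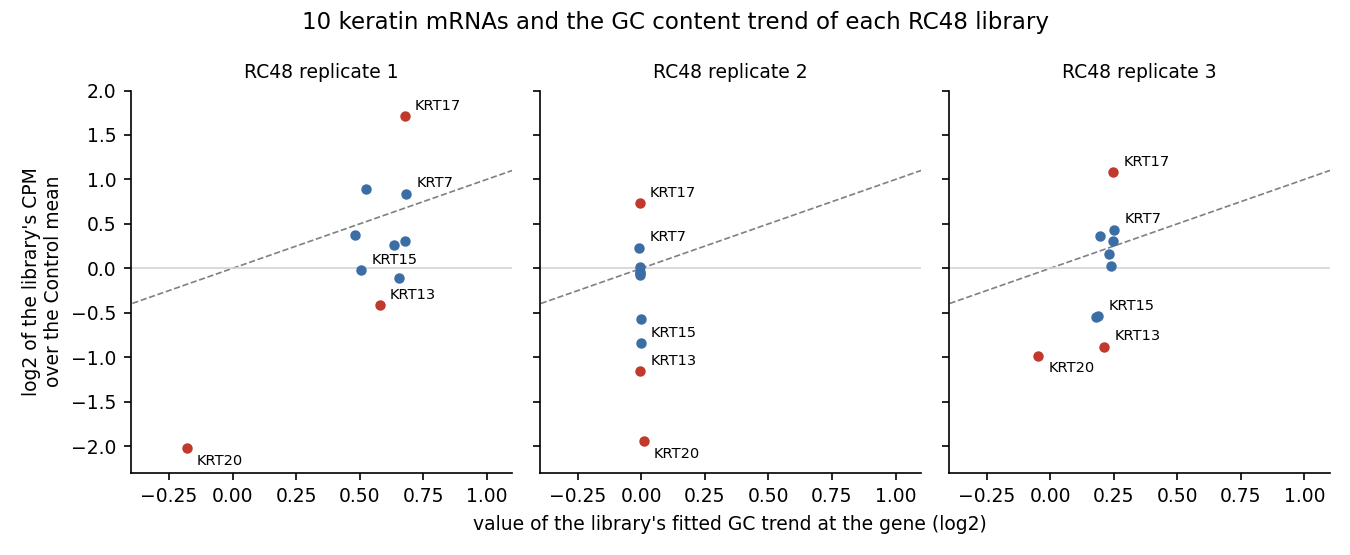
For each RC48 library, the log2 of a keratin's CPM over its Control mean (vertical axis) against the value of that library's fitted GC trend at the gene (horizontal axis), with all 10 keratins as points, KRT13, KRT17 and KRT20 in red and the diagonal dashed. KRT17 lies above and KRT13 and KRT20 below the diagonal in all 3 libraries, while 9 keratins sit at trend values of 0.48 to 0.68 in replicate 1 and near 0 in replicate 2.

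The plot of keratins against the GC trend shows the same gene in libraries with different trends. In RC48 replicate 2, where the trend was near 0 at every keratin, KRT17 stood 0.73 above the Control mean (log2), KRT7 0.23 above, KRT15 0.84 below (-0.84), KRT13 at -1.15 and KRT20 at -1.94. In RC48 replicate 1 the same differences were 1.72 for KRT17, 0.84 for KRT7, -0.02 for KRT15, -0.41 for KRT13 and -2.03 for KRT20. KRT8, KRT18 and KRT19 stood at -0.08, -0.04 and 0.02 in replicate 2.

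Class sums were compared as values, with no test. The simple and luminal keratins summed to 16788, 17209 and 16195 TPM in Control and 20013.5, 18056 and 19339.5 TPM in RC48. The basal and stratified keratins summed to 1889, 1895 and 1825 TPM in Control and 3158, 1980 and 2315 TPM in RC48, nearly all of it KRT17 and KRT13. In TPM both sums were higher in every RC48 library, by a log2 ratio of means of 0.19 and 0.41, but not on every scale. In CPM the basal and stratified sum overlapped, at 1446, 1456 and 1275 CPM in Control and 2648, 1392 and 1753 CPM in RC48. In GC-corrected CPM both sums overlapped. The simple and luminal sum was 12022, 12243.5 and 11128 CPM in Control and 10623, 12688 and 12296 CPM in RC48. The basal and stratified sum was 1431, 1428 and 1313 CPM against 1683, 1398 and 1485 CPM. The log2 ratios of means were then 0.00869 and 0.13. In GC-corrected TPM the basal and stratified sum did not overlap, at 1859 to 1881 in Control and 1959 to 2004 in RC48 (log2 ratio 0.0855). The simple and luminal sum overlapped on that scale (-0.0944). The basal and stratified share of the keratins overlapped between groups, at 10.1%, 9.92% and 10.1% in Control and 13.6%, 9.88% and 10.7% in RC48. Without RC48 replicate 1 the log2 ratio of the basal and stratified sum in TPM was 0.20, less than the 0.41 with it. Within the basal and stratified class KRT17 stood at 4.89% to 4.94% of the TPM of the 10 keratins in Control and 7.68% to 10.9% in RC48. KRT13, of the intermediate layers, stood at 4.83% to 5.01% in Control and 2.09% to 2.54% in RC48.

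**Figure D5:**
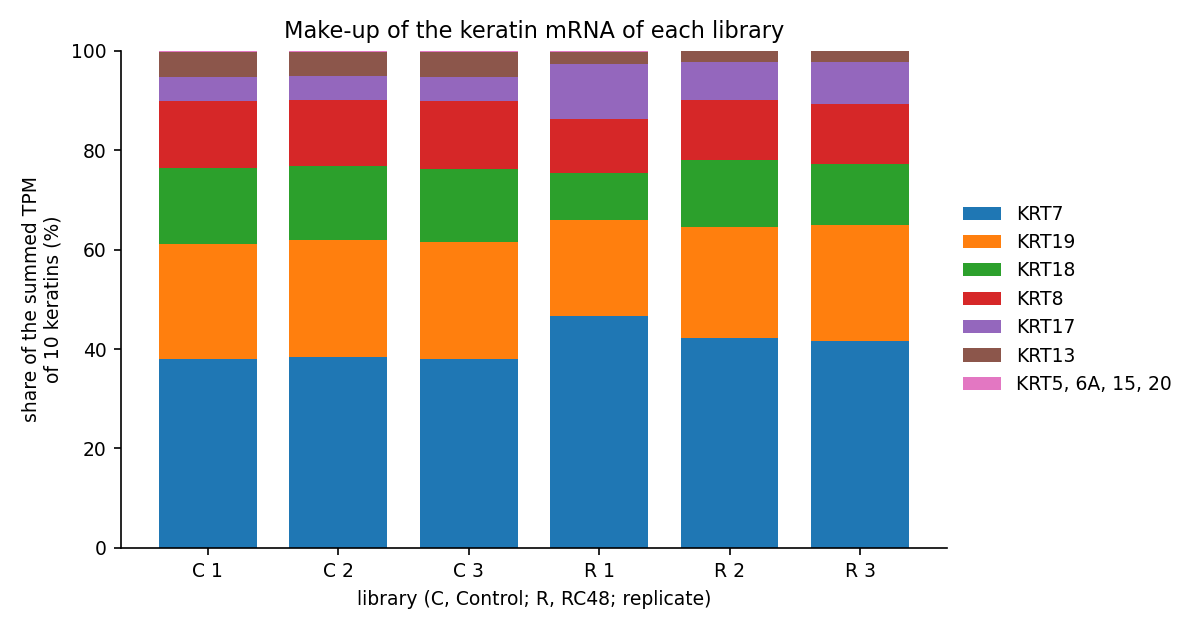
Share of each keratin in the summed TPM of the 10 keratins in each library (C, Control; R, RC48), stacked to 100%. KRT7 takes 37.9% to 38.4% in Control and 41.6% to 46.6% in RC48, and the bands of KRT17 and KRT13 are about equal in Control and unequal in RC48.

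By filament type, type II keratins summed to 9588, 9870 and 9344 TPM in Control and 13362, 10859 and 11644 TPM in RC48. Type I keratins summed to 9089, 9235 and 8676 TPM in Control and 9809, 9177 and 10010.1 TPM in RC48, where the groups overlapped. The ratio of type I to type II TPM was 0.948, 0.936 and 0.929 in Control and 0.734, 0.845 and 0.860 in RC48, lower in every RC48 library. In GC-corrected CPM the type II sums overlapped too, at 7023 to 7666 CPM in Control and 7540 to 8278 CPM in RC48, while the ratio of type I to type II was 0.772 to 0.792 in Control and 0.632 to 0.719 in RC48. KRT7 made up most of the type II sum, and its ratio to KRT8 was 2.83, 2.90 and 2.77 in Control and 4.22, 3.51 and 3.44 in RC48. The ratio of KRT8 to KRT18 overlapped, at 0.874 to 0.944 in Control and 0.879 to 1.19 in RC48.

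Beyond these 10, 27 further keratin genes were listed and 6 had enough reads for the test, of which edgeR called 0, with 4 at an unadjusted p under 0.05. Of those 6, DESeq2 called 2, limma 3 over 5 libraries and 0 over 6, and voom with sample weights 6. KRT10, a suprabasal type I keratin, had 80.5 ± 5.64 TPM in Control and 66.7 ± 8.57 TPM in RC48, and KRT80 had 52.2 and 60.8 TPM on average. KRT23 had 31.1, 30.4 and 28.4 CPM in Control and 13.1, 19.5 and 20.3 CPM in RC48, a log2 fold change of -0.76 (adjusted p 0.101 in edgeR), and was called lower with the GC correction (-0.83, 0.0291). KRT4, the type II partner of KRT13, was the other keratin called lower with the correction. It had 2.197, 1.80 and 2.77 CPM in Control and 1.03, 0.971 and 1.00 CPM in RC48, a log2 fold change of -1.16 (adjusted p 0.0629 in edgeR) and of -1.38 with the correction (0.0137). It was named after its values were seen. In CPM, RC48 lay above Control in 2 of the 6 (KRT14 and KRT80), beside 17.4% of all genes, and below in 2 (KRT23 and KRT4), beside 14.1%. With the GC correction the groups of KRT80 overlapped, and those of KRT14, KRT23 and KRT4 did not. KRT14 had 3.35, 3.65 and 2.65 CPM in Control and 6.92, 3.77 and 4.84 CPM in RC48. By edgeR KRT14 stood at 0.68 (log2, adjusted p 0.233), and at 0.35 with the GC correction (0.208). KRT80 stood at 0.30 (0.235) and, with the correction, at 0.0623 (0.701). The test of KRT14 was added here after its values were seen. The other 21 keratins had at most 22.67 counts in a library.

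Genes that anchor keratin filaments to junctions were read by junction type. Of 11 genes of desmosomes and plakins tested, 0 were called by edgeR, with a median log2 fold change of -0.06. With the GC correction edgeR called 1 lower, beside 2.8% of all genes. It was PPL (periplakin, -0.39, adjusted p 0.0490), whose groups overlapped in CPM without the correction. Of the 11, 1 had an unadjusted p under 0.05 in edgeR, and DESeq2 called 0, limma 4 over 5 libraries and 0 over 6, and voom with sample weights 6. The 3 with the highest CPM, PERP, JUP (plakoglobin) and PPL, had log2 fold changes of -0.15, 0.55 and -0.10. Among genes of the hemidesmosome, which attaches basal cells to the matrix below, LAMA3, a laminin chain, was called higher. LAMA3 had 213, 208 and 243 CPM in Control and 391, 428 and 423 CPM in RC48, a log2 fold change of 0.90 ± 0.12 (SE) with an adjusted p of 0.00835 in edgeR, and 0.82 with the GC correction (0.00295). LAMB3, another laminin chain, had a log2 fold change of 0.97 ± 0.21 (adjusted p 0.0688 in edgeR) and was called with the GC correction (0.66, 0.00329). The keratin linker PLEC (plectin) and the integrin chain ITGB4 were not called by edgeR, at 0.42 (adjusted p 0.246) and 0.37 (0.360), or at 0.0947 and 0.00521 with the correction.

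Of 21 transcription factors known to act on keratin genes, 2 were called higher by edgeR and 0 lower, beside 1.98% and 0.23% of all genes, with a median log2 fold change of 0.00321. Without adjustment 6 had a p under 0.05 in edgeR, or 9 with the GC correction, and DESeq2 called 2, limma 7 over 5 libraries and 0 over 6, and voom with sample weights 14. STAT3 had 153, 146 and 175 CPM in Control and 242, 250.1 and 231 CPM in RC48, a log2 fold change of 0.61 ± 0.12 with an adjusted p of 0.0440 in edgeR. JUN had 187, 200.2 and 195 CPM in Control and 285, 306 and 321 CPM in RC48, at 0.65 ± 0.11 with 0.0267, and was not called with the GC correction (0.43, 0.118), where STAT3 was (0.53, 0.0164). Among factors that were not called, ELF3 and GATA3, of luminal urothelium, stood at 0.30 and 0.10, and KLF5 at -0.55. TP63, the basal cell factor, stood at -0.31 (adjusted p 0.289 in edgeR), and at -0.12 with the GC correction (0.433). Of the 4 luminal markers that the study uses, edgeR called KRT20 lower and not GATA3, FOXA1 or ERBB2. ERBB2 had a log2 fold change of 0.16 (adjusted p 0.519 in edgeR), and of -0.14 with the GC correction (0.254). FOXA1 lay below Control in every RC48 library, with 147.4, 146.8 and 147.0 CPM in Control and 87.7, 123.2 and 114.6 CPM in RC48, a log2 fold change of -0.44 (adjusted p 0.194 in edgeR) and of -0.53 with the correction (0.0849). Of the 4, DESeq2 called 1, limma 2 over 5 libraries and 1 over 6, and voom with sample weights 3. None of the 3 basal markers tested, KRT5, KRT6A and CD44, was called by edgeR, and 0 had an unadjusted p under 0.05. DESeq2 and limma called 0 of them and voom with sample weights 2.

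Of 12 genes tested for filament binding or turnover, 0 were called by edgeR with or without the GC correction, and the 3 with the highest CPM, YWHAZ, TRIM29 and HSPB1, stood at -0.25, 0.39 and 0.29. Without adjustment 2 had a p under 0.05 in edgeR, or 5 with the correction, and DESeq2 called 1, limma 3 over 5 libraries and 0 over 6, and voom with sample weights 10. Of 6 other intermediate filament genes tested, 0 were called by edgeR (2 at an unadjusted p under 0.05, with 1 called by DESeq2, 1 by limma over 5 libraries and 0 over 6, and 2 by voom), and LMNB1, a nuclear lamin, was called lower with the correction (-0.63, adjusted p 0.0130 in edgeR).

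Likeness was measured by the Euclidean distance over the 6 libraries of log2(CPM + 0.5) minus the Control mean, among 9996 genes of at least 10 CPM. The genes nearest to KRT17 were TMEM132A (0.128), LGALS9 (0.186) and ISG15 (0.189). TMEM132A had 65.0, 72.0 and 61.6 CPM in Control and 212, 114 and 135.5 CPM in RC48, with replicate 1 highest as in KRT17. Those nearest to KRT20 were farther from it: CLCA4 (0.549), CLCA2 (0.606) and ARHGEF6 (0.633). At KRT20's low level the added 0.5 shrinks its fall, and hardly changes that of genes above 10 CPM. Its nearest genes therefore match a flattened profile. CLCA2 had 15.03, 16.2 and 15.7 CPM in Control and 5.22, 6.80 and 6.12 CPM in RC48. The distance describes likeness over these libraries and carries no test.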

How the data were processed

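RNA-seq of 3 Control and 3 RC48 libraries of SW780 was analysed. The authors removed low-quality reads with SOAPnuke, aligned with Bowtie2 and quantified with RSEM. The submitters' processing notes name hg38, and versions, strand setting and annotation are not given in the sources used here. Per gene, the authors deposited the expected counts of RSEM (estimated counts, not normalized). They also deposited TPM, scaled by gene length and library size by the authors, for 5 libraries. TPM of RC48 replicate 2 was computed here from its counts and the lengths implied by the other libraries, read from genes of at least 20 counts and at least 1 TPM. For RC48 replicate 3, such a computation differed from the deposited TPM by a median of 0.0363 (absolute log2, 11982 genes).

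Counts were rounded, filtered with filterByExpr (13055 of 16390 genes kept) and scaled by TMM. The quasi-likelihood test of edgeR 4.0.16 (R 4.3.3) compared RC48 with Control without covariates, with Benjamini-Hochberg adjustment over all genes tested and a threshold of 0.05. The limma test on log2(TPM+1), which the study used, is an alternative here, because 1 library has no TPM file. The GC correction subtracted, as an offset, each library's loess trend (span 0.3) of log2 CPM on transcript GC content, known for 16289 genes (99.4%) from GENCODE release 29 transcripts with a RefSeq mRNA where one exists. Other alternatives were DESeq2 1.42.0, limma 3.58.1 on log2(TPM+1) and log2(TPM+0.1), voom with quality weights, RLE scaling, unscaled library sizes, tests without a filter or with a minimum of 10 counts in all libraries, a length correction, a replicate term, and each library left out. The combination of GC correction and left-out libraries and the GC-corrected class sums were added after seeing the data. The edgeR test was tried on simulated counts with the same dispersion in all genes and libraries and no GC trend. That setting does not cover the wide spread and GC trends of the RC48 libraries, nor the GC correction. Tables were made with Python 3.11.15, numpy 2.4.6 and pandas 2.3.3, and figures with matplotlib 3.10.9.

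The keratins, the gene lists and the rule for naming genes were chosen with earlier results of these data known. Named are the 10 keratins, other keratins that were called or had at least 10 TPM in a group, from each other list the genes called and the 3 with the highest CPM, and the 3 genes nearest to each called keratin. Protein sequences and promoters were not used here. Some items that this rule covers, and counts that rest on them, are not reported here.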

Additional observations from a re-analysis of the deposited data

How the results depend on the processing

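The main test called 2 of the 10 keratins and 288 genes in all. The count of keratins became 4 with limma on log2(TPM+1) over 5 libraries (2894 genes), 8, all but KRT8 and KRT18, with voom and sample quality weights (8018 genes), 4 with the GC correction (1000 genes) and 1 with a minimum of 10 counts in every library, which removes KRT20 (228 genes). DESeq2 called 744 genes. Same-numbered Control and RC48 libraries did not deviate together (r = -0.00606, -0.123 and 0.0123 over genes), and the replicate block called 3 keratins and 331 genes, or 4 and 696 with the GC correction. Leaving out each library in turn gave 0 to 5 keratins and 68 to 3726 genes: 0 keratins were called without any 1 Control library, 4 without RC48 replicate 1, 5 without RC48 replicate 2 and 1 without RC48 replicate 3. Under the GC correction the counts without RC48 replicates 1, 2 and 3 were 4 each, with 1713, 1959 and 346 genes, and without a Control library 3 each. KRT8 and KRT19, not called, changed sign with the GC correction (-0.17 and -0.0779) and with it plus the replicate block (-0.17 and -0.0892). They did so too with it and without Control replicate 1 (-0.16 and -0.0707), 2 (-0.15 and -0.0512) or 3 (-0.20 and -0.12) and without RC48 replicate 2 (-0.22 and -0.13) or 3 (-0.24 and -0.17), and KRT8 alone without RC48 replicate 1 (-0.0783). The log2 ratio of the simple and luminal sum, 0.19 in TPM, was 0.32 in CPM, 0.00869 in GC-corrected CPM and -0.0944 in GC-corrected TPM. The other 8 keratins kept their sign in every alternative that gave a value. The cause of these changes was not tested. The sum of KRT6A with KRT6B and KRT6C could not be run. KRT20 rests on 8 to 35 counts per library, which limits its precision.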

Other observations

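Genes of the cornified envelope and of squamous differentiation, programmes that accompany stratified keratins in skin, were read as a further list chosen with earlier results of these data known. Of 30 genes, 21 were listed and 12 tested, with a median log2 fold change of 0.51 (0.28 with the GC correction). By edgeR, 2 were called higher and 0 lower, beside 1.98% and 0.23% of all genes. DESeq2 called 2, limma 3 over 5 libraries and 2 over 6, and voom with sample weights 7, beside 61.4% of all genes by voom. S100A9, a calcium-binding protein of activated epithelium and myeloid cells, had 20.8, 21.3 and 16.5 CPM in Control and 51.3, 51.6 and 58.8 CPM in RC48, a log2 fold change of 1.46 ± 0.15 with an adjusted p of 0.00301 in edgeR (1.26 and 0.00225 with the GC correction). SPRR1A, a small proline-rich envelope protein, rose from 0.231, 0.406 and 0.177 CPM to 1.34, 0.914 and 0.946 CPM (1.94 ± 0.38, adjusted p 0.0482 in edgeR; 1.62 and 0.0264 with the GC correction), at levels of few reads. IVL (involucrin), an early envelope protein, was not called at -0.36 and was called lower with the GC correction (-0.65, adjusted p 0.00127 in edgeR). S100A2 and LY6D, which with IVL had the highest CPM of the list, had log2 fold changes of 0.72 and 0.30 and were not called.

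Among markers of other cell types, FAP, a fibroblast protease, was called higher, with 3.93, 3.998 and 3.30 CPM in Control and 7.84, 10.7 and 9.35 CPM in RC48 (log2 fold change 1.31, adjusted p 0.0128 in edgeR, and 1.67 with 5.2e-04 under the GC correction). The fibroblast markers DCN, PDGFRB and THY1 had too few reads to be tested. Of the 4 that were tested, DESeq2 called 4, limma 3 over 5 libraries and 1 over 6, and voom with sample weights 4. CD3E, a T-cell receptor chain, had 4 to 7 counts per library in Control and 11 to 23 in RC48 (1.64, adjusted p 0.113 in edgeR), and was called higher with the GC correction (1.495, 0.0483). SRGN, a proteoglycan of blood cell granules, was called with the correction too (0.59, 0.0480), and not without it (0.20, adjusted p 0.424 in edgeR). Of the 6 leukocyte markers tested, DESeq2 called 0, limma 2 over 5 libraries and 0 over 6, and voom with sample weights 4.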
